A study of Mus musculus with 6 samples.

Results

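The genes described here encode the phase II conjugation enzymes of mouse liver: the glutathione S-transferases (GST), the UDP-glucuronosyltransferases (UGT) and the sulfotransferases (SULT). Members were all genes with a probe set of their own whose symbol belongs to the cytosolic and microsomal GST classes, to UGT1, UGT2 or UGT3, or to SULT1 to SULT5, and each gene was represented by its probe set of highest mean over the 6 arrays. This gave 46 of the 19938 genes tested, with 22 GST, 10 UGT and 14 SULT genes. The inbred strain C57BL/6 was used, all males, and whole-liver total RNA was hybridised to 6 Affymetrix Mouse Gene ST arrays, with 3 for each diet. The LE mice ate chow mixed with lovastatin (100 mg per 100 g), an inhibitor of HMG-CoA reductase in cholesterol synthesis, and ezetimibe (21 mg per 100 g), which blocks intestinal cholesterol uptake. The CH mice ate chow with 1% cholesterol by weight. All mice were 6 weeks old on arrival and had 1 week on chow before the diets. The labels also describe mice kept on chow, which are not analysed here, so no value says how either diet differs from chow. Arrays of a diet are named biological replicates in the labels, with no animal given for any of them, so the p-values rest on the spread among these arrays, part of which may be technical.

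Phase II enzymes attach a bulky, polar group to drugs, steroids, bile acids and reactive by-products, so that these can be exported into bile or urine. GSTs add glutathione to electrophiles, UGTs add a sugar, mostly glucuronic acid, from a UDP-sugar donor in the endoplasmic reticulum, and SULTs add a sulfonate group from the donor PAPS in the cytosol. In liver the bulk of all 3 reactions takes place in hepatocytes, and several members, among them pi-class GSTs and UGT2B enzymes, are known to differ between male and female mice.

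Intensities are the deposited linear probe set values, and fold changes are LE over CH on the log2(intensity + 1) scale with the standard error (SE) of the limma fit over all 19938 genes, n = 3 arrays per diet. A gene was called when limma's Benjamini-Hochberg adjusted p, taken over all these genes, was below 0.05. Intensities of different probe sets are not compared with each other. Array medians lay between 158.1 and 162.9, and the correlation over genes (Pearson's r, a description, since genes are not independent) was 0.9969 to 0.9978 among LE arrays, 0.9965 to 0.9973 among CH arrays and 0.9898 to 0.9911 between diets. The 7 hepatocyte markers, among them Alb and Ttr, were not called, and their summed intensity was 119928 to 123731 in LE livers and 118742 to 121278 in CH livers. All 10 Kupffer cell and macrophage markers rose with LE, with sums of 10062 to 10539 in LE livers and 7594 to 8089 in CH livers, and the part of this shift in the values of the enzymes was not tested. In whole tissue, fewer cells of a type and less RNA per cell cannot be told apart.

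Most conjugation enzymes that were called were lower with LE. Of the 46 members, 25 (54.3%) were called, 7 higher and 18 lower, where 12.1% of all genes were called, 7.01% higher and 5.08% lower. The median change of the members was -0.105 on the log2 scale, beside -0.0049 over all genes. In 12 members every LE array lay above every CH array and in 23 every LE array lay below, where this held for 15.9% and 14.7% of all genes. By mean intensity, 11 members fell among the dimmest 33.3% of genes, here called dim, and of the 35 others 24 were called (68.6%), beside 16.5% of all genes that were not dim. Over all genes the split of calls, 1398 higher and 1012 lower, depended on the scaling and was 1460 higher and 1598 lower after quantile normalisation, whereas the members gave 7 higher and 20 lower in that setting.

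By family, the counts were as follows. Among the UGT genes 7 of 10 fell and 0 rose, with a median of -0.415. Among the SULT genes 6 of 14 fell and 1 rose, with a median of -0.18. Among the GST genes 6 of 22 rose and 5 fell, with a median of 0.04. The UGT count was the same when any single array was left out, and the SULT count was 5 to 7, but the GST count of 11 was 5 without CH1, 6 without CH2, CH3 or LE2, 8 without LE1 and 9 without LE3.

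**Figure D1:**
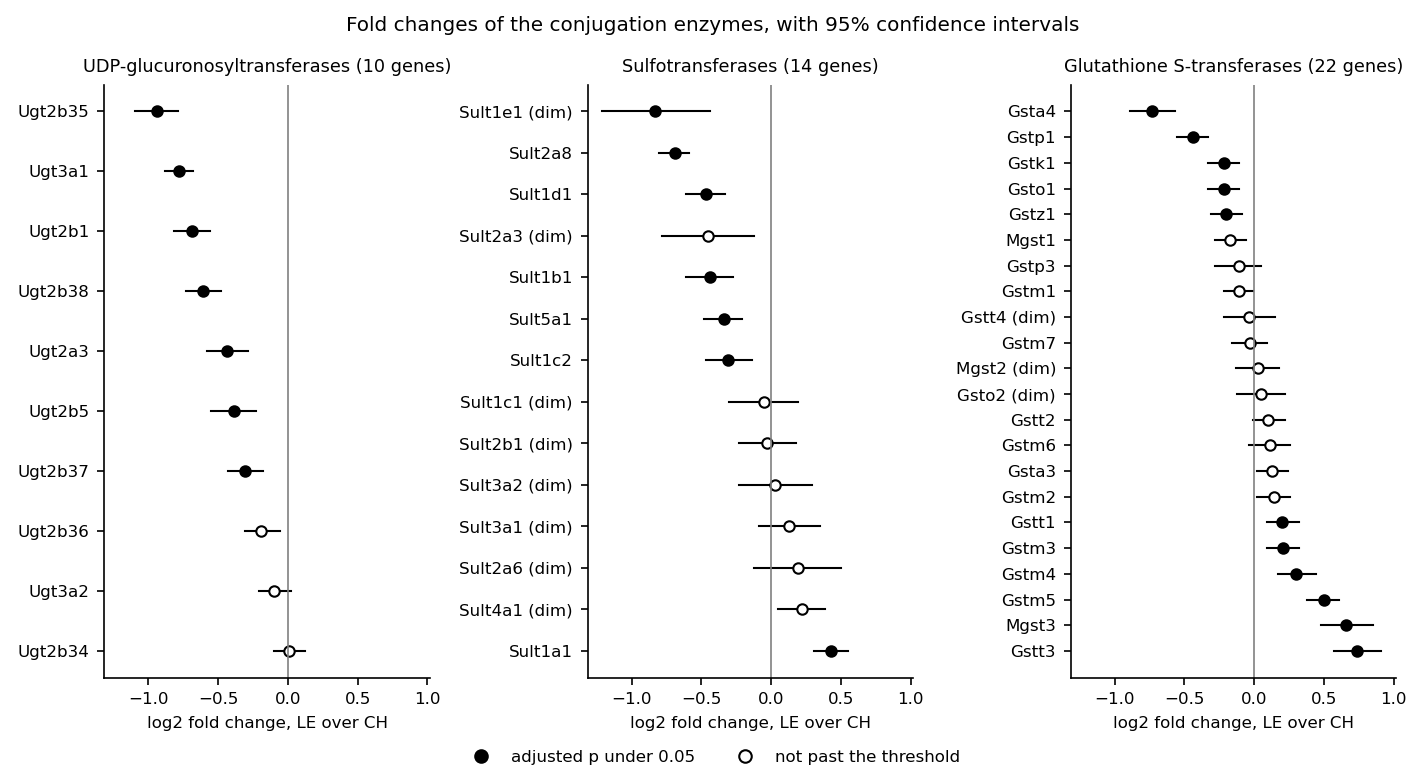
Log2 fold change of each member, LE over CH (x axis), with 95% confidence intervals, by family. Filled points were past the threshold and open points were not, and the dimmest genes are marked as dim. The UGT points lie at or below 0 except Ugt2b34 at 0.01, while the GST points run from -0.73 for Gsta4 to 0.74 for Gstt3.

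The UGT2 genes form a row of related genes, and 3 of them share part of their start region. The 250 bases before the start of 3 genes of this row that all fell, from RefSeq on build GRCm38.p6, are shown with the run of 62 bases that is identical in all 3 in capitals. Ugt2b34, which opens the same row of genes and was not called, is shown with them and holds no capitals. The regions are chr5:87140341-87140590, chr5:87254789-87255038, chr5:87424204-87424453 and chr5:86906938-86907187, all on the minus strand.
Ugt2b5: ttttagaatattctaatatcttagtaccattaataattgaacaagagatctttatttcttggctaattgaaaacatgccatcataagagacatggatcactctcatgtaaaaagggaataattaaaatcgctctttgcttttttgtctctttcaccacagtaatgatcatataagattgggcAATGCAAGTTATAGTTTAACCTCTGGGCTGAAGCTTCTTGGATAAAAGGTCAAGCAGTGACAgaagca
Ugt2b37: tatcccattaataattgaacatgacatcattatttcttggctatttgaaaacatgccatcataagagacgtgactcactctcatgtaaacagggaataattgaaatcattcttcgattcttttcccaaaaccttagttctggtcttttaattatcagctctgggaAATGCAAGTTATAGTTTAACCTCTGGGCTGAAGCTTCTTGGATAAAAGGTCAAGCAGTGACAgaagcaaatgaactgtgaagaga
Ugt2b38: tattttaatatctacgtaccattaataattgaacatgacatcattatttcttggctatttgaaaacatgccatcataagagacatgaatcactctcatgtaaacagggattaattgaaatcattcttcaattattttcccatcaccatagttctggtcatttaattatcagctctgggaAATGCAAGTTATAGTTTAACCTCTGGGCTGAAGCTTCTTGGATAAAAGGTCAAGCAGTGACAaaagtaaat
Ugt2b34: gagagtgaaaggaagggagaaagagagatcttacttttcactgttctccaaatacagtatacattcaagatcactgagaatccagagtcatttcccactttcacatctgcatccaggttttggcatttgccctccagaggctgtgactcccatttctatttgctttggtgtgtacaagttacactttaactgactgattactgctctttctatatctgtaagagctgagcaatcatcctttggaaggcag

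Aligned end to end, the Ugt2b37 and Ugt2b38 stretches were 85.2% identical, those of Ugt2b38 and Ugt2b5 81.5% and those of Ugt2b37 and Ugt2b5 73.0%. Pairs of members from different families had a median of 48.0% (557 pairs, 38.9% to 56.0%) by the same alignment. Pairs of the same class had a median of 50.3% (79 pairs, 44.3% to 85.2%). Ugt2b34 matched the 3 genes at 51.3% to 54.0%. Ugt2b1 and Ugt2b35, which fell further than these 3, matched them at 52.1% to 52.8% and 57.4% to 58.9%. Ugt2b36, which like Ugt2b34 was not called, matched them at 58.3% to 60.4%. A relation between the promoter letters and the change was not tested. These stretches lie before the start, and the identity of transcripts or probes was not computed. The transcripts of close copies can hybridise to each other's probes, so the change of any UGT2B gene taken singly is uncertain.

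With LE, 6 of 8 UGT2 genes and 1 of 2 UGT3 genes fell, where 5.08% of all genes were called lower. Of the UGT1 genes 8 were measured, only by a shared probe set that is given after these families, and Ugt1a8 was not measured. Ugt2b35 had intensities of 1238, 1347 and 1443 in LE livers, against 2526, 2544 and 2672 in CH livers. It was 1.92-fold lower (log2 -0.94, SE 0.066, adjusted p = 7.87e-05), and the diets did not overlap. Ugt3a1, whose human counterpart transfers N-acetylglucosamine in place of glucuronic acid, read 2271, 2295 and 2314 in LE livers, against 3958, 3946 and 3910 in CH livers. The arrays of each diet lay close together and far from those of the other, a 1.72-fold fall (log2 -0.78, SE 0.045, adjusted p = 2.59e-05). Its neighbour Ugt3a2 read 7146, 7272 and 6837 in LE livers, against 7629, 7522 and 7556 in CH livers, and was not called (log2 -0.10, 95% interval -0.21 to 0.02, adjusted p = 0.277), although all LE arrays lay below all CH arrays. A pair of probe sets listed for both UGT3 genes changed by -0.17 and -0.22 (adjusted p = 0.158 and 0.102 in the fit of all probe sets) and were not called, so the fall of Ugt3a1 rests on its own probe set. Of the UGT2B enzymes, which glucuronidate steroids, bile acids and drugs, Ugt2b1 read 7093, 7524 and 7627 in LE livers, against 11941, 11462 and 12458 in CH livers. Its rat counterpart is known for glucuronidating bisphenol A. It fell 1.61-fold (log2 -0.69, SE 0.056, adjusted p = 1.71e-04).

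The 4 further UGT2 genes that fell changed less. Ugt2b38 read 1726, 1646 and 1601 in LE livers, against 2482, 2481 and 2604 in CH livers, a 1.52-fold fall (adjusted p = 2.48e-04). Ugt2a3, whose human counterpart glucuronidates bile acids, read 4262, 4388 and 4766 in LE livers, against 5850, 5963 and 6374 in CH livers, a 1.36-fold fall (adjusted p = 0.00321). In each of these genes the diets stood apart on every array. Ugt2b5 read 3706, 4153 and 3593 in LE livers, against 4903, 4868 and 5217 in CH livers, with log2 -0.39 (SE 0.068, adjusted p = 0.00848). Ugt2b37 read 357.8, 360.4 and 378.7 in LE livers, against 451.6, 432.7 and 473.6 in CH livers, with log2 -0.31 (SE 0.055, adjusted p = 0.010). All 7 UGT calls held under each of the 15 other settings tried, with the highest adjusted p at 0.0451 for Ugt2b37.

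Among the UGT genes that were not called, Ugt2b36 read 8641, 9274 and 9177 in LE livers, against 10139, 9981 and 10709 in CH livers. All LE arrays lay below, but the change of -0.19 (SE 0.055) had an adjusted p of 0.069, which was under the threshold in 5 of the 15 other settings and ranged from 2.04e-04 to 0.196 over them. Ugt2b34 read 8083, 7856 and 8170 in LE livers, against 7962, 7864 and 8157 in CH livers, so that the diets overlapped completely. Its 95% interval, -0.10 to 0.12 on the log2 scale, does not hold the changes of Ugt2b1 or Ugt2b35. The UGT1A genes share most of their exons, and a single probe set listed for 8 of them stands for the class. It read 5514, 5652 and 5766 in LE livers, against 4912, 4774 and 4910 in CH livers. This was log2 0.21 (SE 0.046), higher on every LE array, with an adjusted p of 0.0548 in a fit of all 35556 probe sets, in which 5.61% were called. That fit called 19 of the 46 members in place of 25, so its adjusted p is not on the footing of the members' values.

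**Figure D2:**
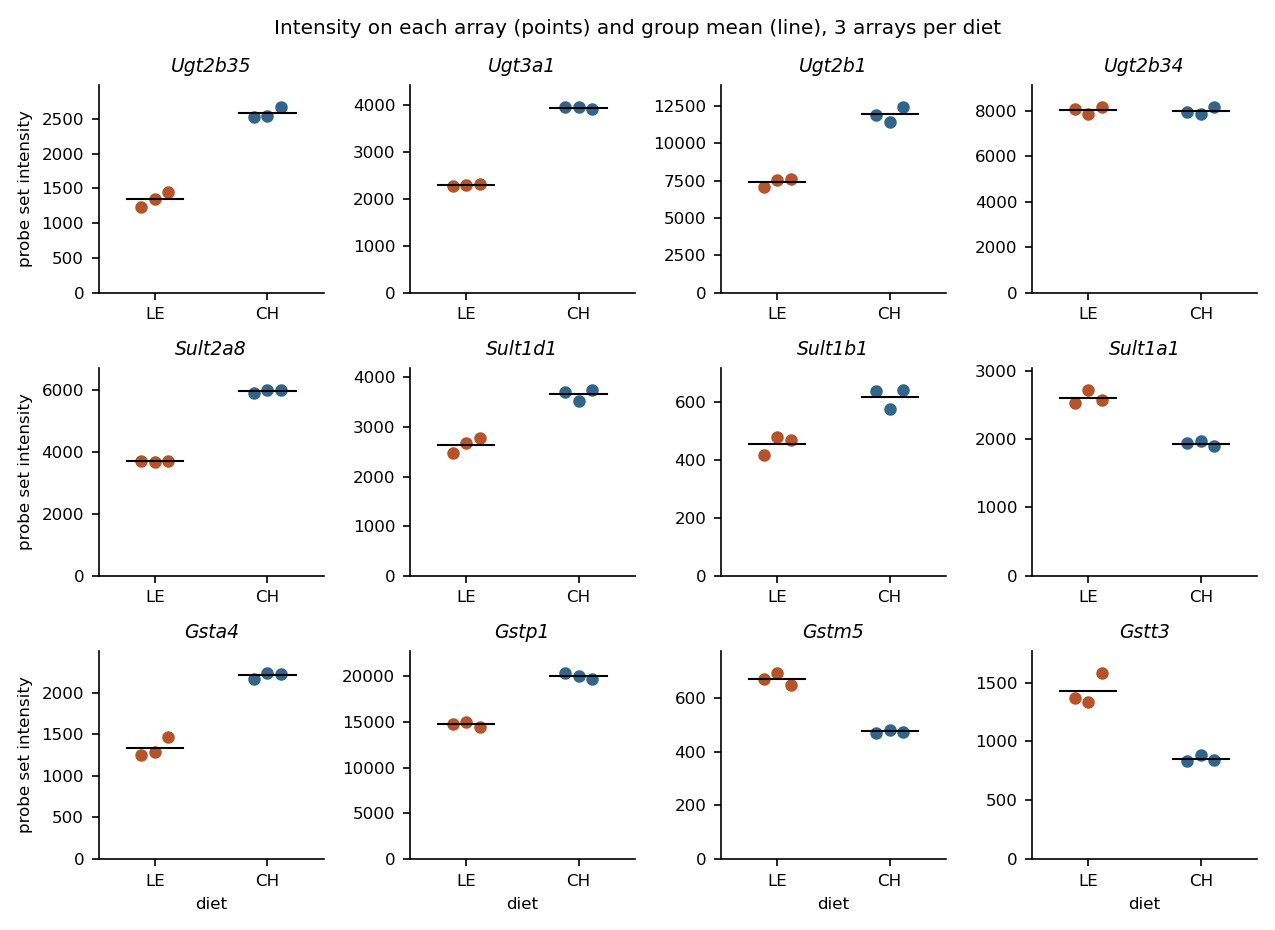
Deposited probe set intensity (y axis, linear, from 0) on each of the 3 arrays per diet for 12 members, with the group mean as a line. LE and CH arrays overlap for Ugt2b34, while Sult1a1, Gstm5 and Gstt3 are higher and the other 8 genes are lower on every LE array.

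The UGT2 genes lie next to each other, and the row continues into 3 SULT1 genes. In RefSeq order (GRCm38.p6) it runs Ugt2b34, Ugt2b1, Ugt2b35, Ugt2b36, Ugt2b5, Ugt2b37, Ugt2a3, Ugt2b38, Ugt2a1, Ugt2a2, Sult1b1, Sult1d1 and Sult1e1, with no other protein-coding gene of the RefSeq table starting between them. Of its 13 genes 11 were measured singly, and 9 of these fell, the exceptions being Ugt2b34 at its edge and Ugt2b36. Over all genes 5.08% were called lower. These 9 are not separate observations, since close Ugt2b copies can share probes, and Sult1e1 was dim. A probe set shared by the 2 genes without one of their own read 21.97, 20.26 and 21.87 in LE livers, against 21.87, 21.41 and 24.48 in CH livers, which is not called (adjusted p = 0.629 in the fit of all probe sets). The changes were unequal within this row, from 0.01 for Ugt2b34 to -0.94 for Ugt2b35, and within other rows of neighbours. Ugt3a1 and Ugt3a2 changed by -0.78 and -0.10, and Sult1c2 and Sult1c1 by -0.31 and -0.05. Gstt3, Gstt1, Gstt4 and Gstt2 changed by 0.74, 0.20, -0.04 and 0.10, and the 7 Gstm genes by -0.11 to 0.50. Gsto1 and Gsto2 changed by -0.22 and 0.05, and the dim pair Sult3a2 and Sult3a1 by 0.03 and 0.13.

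**Figure D3:**
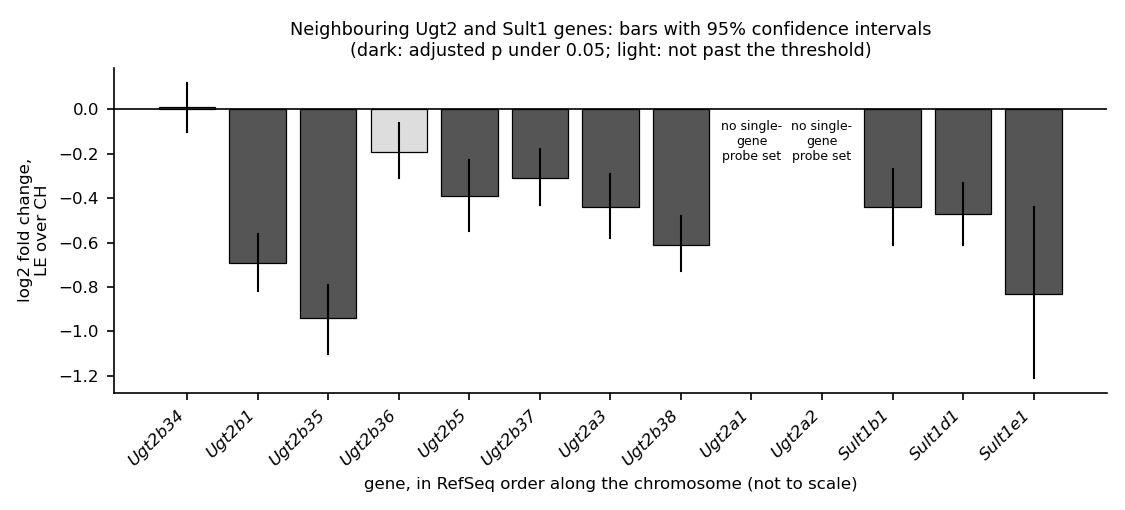
Log2 fold change, LE over CH (y axis), with 95% confidence intervals, for the neighbouring Ugt2 and Sult1 genes in their order along the chromosome (x axis, not to scale). Dark bars were past the threshold. From Ugt2b1 to Sult1e1 every measured gene is below 0, and Ugt2b34 is at 0.01.

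Among the sulfotransferases, the genes that were not dim fell, except Sult1a1, which rose. Of 14 SULT genes, 8 were dim, and 1 of these 8 was called. The 6 genes that were not dim were all called, 5 lower and 1 higher, beside 16.5% called of all genes that were not dim. Sult2a8, which sulfonates bile acids in mouse liver, read 3717, 3666 and 3711 in LE livers, against 5914, 6003 and 6007 in CH livers. The arrays of each diet were nearly identical, and the 1.62-fold fall (log2 -0.69, SE 0.045) had an adjusted p of 4.84e-05. Sult1d1, which acts on catecholamines, read 2470, 2681 and 2775 in LE livers, against 3700, 3529 and 3747 in CH livers, a 1.39-fold fall (adjusted p = 0.00186). Sult1b1, a thyroid hormone sulfotransferase, read 418.8, 480.7 and 471.5 in LE livers, against 638.2, 577 and 642.7 in CH livers, a 1.36-fold fall (adjusted p = 0.00685).

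Sult5a1 read 415.4, 445.5 and 453.1 in LE livers, against 570, 526.4 and 571.5 in CH livers, and was lower on every LE array (log2 -0.34, SE 0.059, adjusted p = 0.0083). Sult1c2 read 238.1, 227.9 and 252.2 in LE livers, against 309.6, 271.2 and 310.2 in CH livers. Its call (log2 -0.31, adjusted p = 0.0282) was lost without LE1, LE2, CH1 or CH3, with adjusted p up to 0.103 and from 0.00118 over the 15 settings. The phenol sulfotransferase Sult1a1 went the other way, with 2527, 2717 and 2572 in LE livers, against 1940, 1968 and 1896 in CH livers. It rose 1.35-fold (log2 0.43, SE 0.051, adjusted p = 0.00132) and was called in each of the 15 settings. Its log2 interval of 0.31 to 0.55 and that of its SULT1 relative Sult1d1, -0.61 to -0.33, lie on opposite sides of 0.

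Sult1e1, the oestrogen sulfotransferase, was dim, with 15.19, 13.01 and 15.11 in LE livers, against 22.97, 22.11 and 35.7 in CH livers. The call (log2 -0.83, SE 0.167, adjusted p = 0.017) was lost without LE2 or LE3, with adjusted p from 2.2e-04 to 0.0719 over 14 settings. CH3 lay apart from the other CH arrays, and the log2 change was -0.61 without it and -0.48 with a pseudocount of 16. The remaining 7 dim genes, Sult1c1, Sult2a3, Sult2a6, Sult2b1, Sult3a1, Sult3a2 and Sult4a1, had intensities between 7.294 and 97.43 on all arrays and were not called. Sult2a3 and Sult4a1 had changes of -0.45 (adjusted p = 0.0884) and 0.22 (adjusted p = 0.10) without overlap between the diets, and the other 5 overlapped. Sult2b1, which sulfonates cholesterol, read 97.43, 80.57 and 77.51 in LE livers, against 90.42, 83.8 and 85.08 in CH livers (log2 -0.03, 95% interval -0.23 to 0.18). Some genes of the SULT2A class that have no probe set of their own were covered by 2 shared probe sets. These read 6.564 to 35.86 in LE livers and 11.03 to 33.48 in CH livers, and neither was called (adjusted p = 0.258 and 0.675 in the fit of all probe sets). Sult2a7 was listed on neither of them and was not measured.

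The glutathione S-transferases went in both directions. In the alpha class Gsta4, which conjugates the lipid peroxidation product hydroxynonenal, read 1247, 1286 and 1470 in LE livers, against 2167, 2232 and 2228 in CH livers. It fell 1.66-fold (log2 -0.73, SE 0.069, adjusted p = 4.07e-04). Gsta3, known in mouse for conjugating aflatoxin epoxide, read 11941, 12408 and 11944 in LE livers, against 10955, 10993 and 11279 in CH livers. Its diets did not overlap, but the change of 0.13 was not called (adjusted p = 0.142). The remaining alpha-class transcripts had the largest change seen for any probe set of these enzyme families. They are measured by 4 probe sets, each listed for the same 4 near-identical genes, which cannot be told apart. The set with the largest change read 920.8, 1032 and 1072 in LE livers, against 3041, 3174 and 3181 in CH livers. The 4 sets were 3.11-, 3.04-, 3.02- and 2.98-fold lower (log2 -1.64 to -1.58, adjusted p up to 1.43e-04 in the fit of all probe sets), and each stayed past the threshold without any single array (adjusted p up to 0.00226).

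**Figure D4:**
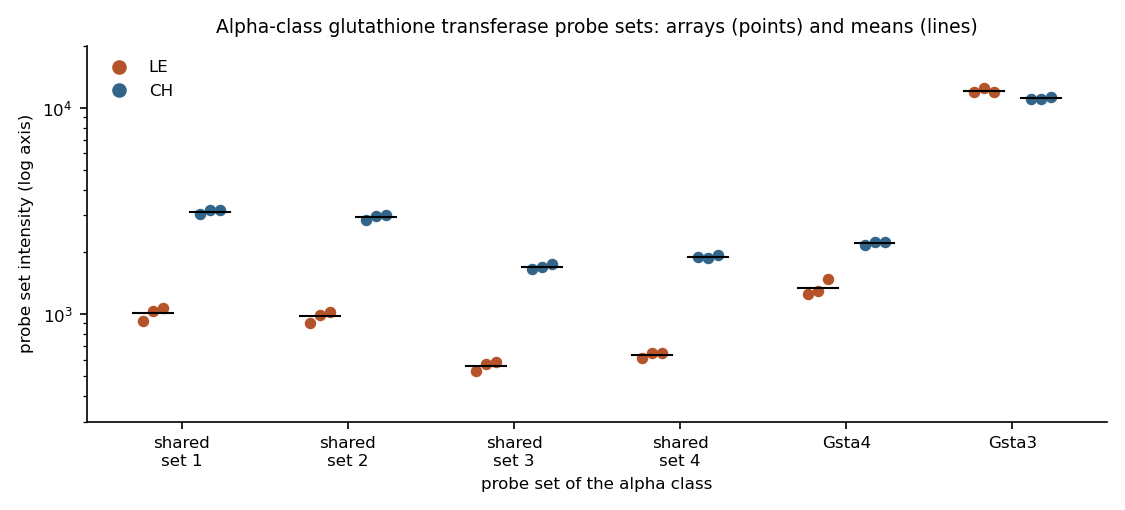
Probe set intensity (y axis, log scale) of the alpha-class GST probe sets on each of the 3 arrays per diet, with group means as lines. Each of the 4 sets shared by near-identical genes is 2.98- to 3.11-fold lower in LE livers, Gsta4 is 1.66-fold lower and Gsta3 differs little.

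In the pi class 1 of 2 members fell. Gstp1, a main GST of male mouse liver, read 14799, 14958 and 14454 in LE livers, against 20313, 19997 and 19688 in CH livers, a 1.36-fold fall (log2 -0.44, SE 0.047, adjusted p = 7.01e-04). A pair of probe sets shared by pi-class genes were 1.44- and 1.45-fold lower (adjusted p = 0.00321 and 0.00278 in the fit of all probe sets). Gstp3 read 436.6, 454.2 and 516.2 in LE livers, against 516, 492.4 and 510.4 in CH livers, with overlap, and was not called (log2 -0.11, adjusted p = 0.38). Such close copies can share probes, so the part of each gene in the pi-class signal is uncertain.

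In the mu class, which conjugates epoxides and other xenobiotics, 3 of 7 genes rose and 0 fell. Over all genes 7.01% were called higher and 5.08% lower. Gstm5 read 670.2, 691.3 and 648.1 in LE livers, against 470, 480.4 and 474.1 in CH livers. It rose 1.41-fold (log2 0.50, SE 0.049, adjusted p = 4.9e-04) with the diets well apart. Gstm4 read 7032, 6757 and 7316 in LE livers, against 5403, 5814 and 5887 in CH livers, a 1.23-fold rise (adjusted p = 0.0126) whose call was lost without CH1 (0.0548, and 7.17e-07 to 0.0548 over all 15 settings). Gstm3 was measured by 2 probe sets that differed in size but not in direction. The set used for the gene read 9025, 9686 and 9420 in LE livers, against 8238, 7958 and 8172 in CH livers (log2 0.21, SE 0.050, adjusted p = 0.0358). The other read 7310, 7743 and 7935 in LE livers, against 5683, 5658 and 5826 in CH livers (log2 0.42, SE 0.052, adjusted p = 0.00879 in the fit of all probe sets). The call on the set used for the gene was lost after centring and without any single array but LE1 (adjusted p up to 0.119, and from 1.46e-05 over the settings), and that on the other without CH1 (0.0537).

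Gstm1, an abundant mu-class enzyme, read 13420, 13549 and 13721 in LE livers, against 14711, 14608 and 14713 in CH livers. The diets did not overlap, but the difference was small and not called (log2 -0.11, 95% interval -0.22 to -0.01, adjusted p = 0.165). Gstm2 (0.14), Gstm6 (0.11) and Gstm7 (-0.03) were not called either. In the theta class, which acts on small halogenated compounds, Gstt3 had the largest rise of any member. It read 1369, 1333 and 1580 in LE livers, against 831.2, 881.3 and 846.1 in CH livers, a 1.67-fold rise (log2 0.74, SE 0.073, adjusted p = 4.81e-04). Gstt1 (log2 0.20, adjusted p = 0.0339) lost its call without any single array (adjusted p 0.0542 to 0.123) and after centring (0.0524). Gstt2 (0.10) and Gstt4 (-0.04) were not called.

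The omega, zeta and kappa classes each had a gene that fell slightly. Gstk1, a GST of mitochondria and peroxisomes, read 6864, 6899 and 7233 in LE livers, against 8266, 8161 and 8050 in CH livers (log2 -0.22, adjusted p = 0.0228). Gsto1, an omega-class enzyme that reduces dehydroascorbate and methylated arsenic, read 1848, 1791 and 1778 in LE livers, against 2114, 2096 and 2096 in CH livers (log2 -0.22, adjusted p = 0.0198). Gstz1, which isomerises maleylacetoacetate in tyrosine breakdown, changed by -0.20 (adjusted p = 0.0332). In all 3 the diets stood apart, but the changes were close to the limit of the test. The call was lost without any single array but LE3 for Gstk1 (adjusted p up to 0.0968) and Gstz1 (up to 0.125), and without CH1, CH2, CH3 or LE2 for Gsto1 (up to 0.085), with the lowest values over the 15 settings at 6.71e-06, 2.15e-05 and 4.5e-05. Gsto2 (0.05) was dim and not called.

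The microsomal GSTs are membrane proteins unrelated in fold to the cytosolic classes. Mgst3, which has peroxidase and leukotriene C4 synthase activity, read 575.4, 523.4 and 470.8 in LE livers, against 334, 313.6 and 339.8 in CH livers. It rose 1.58-fold (log2 0.66, SE 0.079, adjusted p = 0.0013) and was called in each of the 15 other settings. Mgst1 read 13062, 13660 and 12899 in LE livers, against 14873, 14803 and 14853 in CH livers, lower on every LE array. Its change of -0.17 had an adjusted p of 0.0618, below the threshold in 5 of the 15 other settings (7.21e-05 to 0.18). Mgst2 (0.03) was dim and not called.

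Promoter letters were searched because many GST genes are known targets of the stress factor NRF2. The letters searched were TGACNNNGC, the core of the antioxidant response element, and those of the sterol regulatory element, on both strands of the 250 bases before each start. Of the members, 42 had an entry, with 54 promoters. The first was found in 4 of these 54 promoters (of Gsta3, Gstm5, Gstm7 and Mgst1) and in 3338 of all 32851 promoters (10.2%), and of the 4 genes only Gstm5 was called. The second was found in 0 of the 54 and in 0.192% of all promoters. The stretch of Gstm5, the member with the core that rose, covers chr3:107895604-107895853 on the plus strand, with the core in capitals.
Gstm5: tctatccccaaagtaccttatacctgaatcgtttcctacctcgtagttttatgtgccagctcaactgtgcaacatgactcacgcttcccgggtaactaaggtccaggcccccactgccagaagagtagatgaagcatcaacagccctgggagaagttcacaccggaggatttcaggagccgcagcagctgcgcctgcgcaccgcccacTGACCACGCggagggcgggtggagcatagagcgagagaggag

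Genes that supply the donors of the 3 reactions went in both directions. The counts below stand beside 12.1% called over all genes and 16.5% over those that were not dim. Of 7 genes of UDP-glucuronate supply 1 rose and 1 fell. Ugdh, which makes UDP-glucuronate, read 9842, 9785 and 10207 in LE livers, against 5911, 5911 and 5891 in CH livers, a 1.68-fold rise (log2 0.75, SE 0.046, adjusted p = 3.82e-05). Ugp2, which makes its precursor UDP-glucose, fell by 0.28 on the log2 scale (adjusted p = 0.0139), a call lost without CH3 (0.0519). Of 8 genes of PAPS and sulfate supply 3 rose and 1 fell: the PAPS synthases Papss1 and Papss2 rose by 0.47 (adjusted p = 0.0012) and 0.29 (0.00583), the sulfate transporter Slc26a1 by 0.23 (0.0144), and sulfite oxidase Suox fell by 0.35 (0.00244). Of 14 genes of glutathione synthesis and turnover 2 rose and 5 fell, with 3 lower without LE1, LE2, CH1, CH2 or CH3 and 1 higher without CH1. Glutathione synthetase Gss had 844.5, 891 and 931.8 in LE livers, against 1287, 1197 and 1251 in CH livers (log2 -0.49, adjusted p = 0.00129), the transferase Ggt6 fell by 0.44 (0.00204), and the glutathione peroxidase Gpx4 rose by 0.43 (0.00253).

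Conjugating enzymes outside the 3 families were also mostly lower, 8 of 14 against 1 higher, with a median of -0.32. Over all genes 5.08% were called lower and 7.01% higher. Inmt, an indole and thioether methyltransferase, read 8519, 8209 and 8225 in LE livers, against 16175, 15948 and 16243 in CH livers. This 1.94-fold fall (log2 -0.95, SE 0.046, adjusted p = 9.68e-06) stands beside 1.92-fold for Ugt2b35. The histamine methyltransferase Hnmt fell by 0.72 (adjusted p = 0.001), and Acsm2, of the enzymes that activate acids for conjugation with glycine, fell by 0.66 (0.0192), a call lost without CH1 (0.0511) or CH3 (0.0522). The arsenite methyltransferase As3mt was the gene that rose, by 0.44 (adjusted p = 0.00134). In all 14 genes of this list, called or not, the diets did not overlap. Over all genes every LE array lay above every CH array in 15.9% and below in 14.7%. Of 11 transporters that carry conjugates 1 rose and 4 fell (2 without LE1, LE2, LE3, CH1 or CH3). Slco1a4, an uptake carrier of organic anions, read 3010, 2998 and 3119 in LE livers, against 1216, 1153 and 1225 in CH livers, a 2.54-fold rise, and the related Slco1a1 and the efflux pump Abcc6 fell by 0.63 and 0.30.

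**Figure D5:**
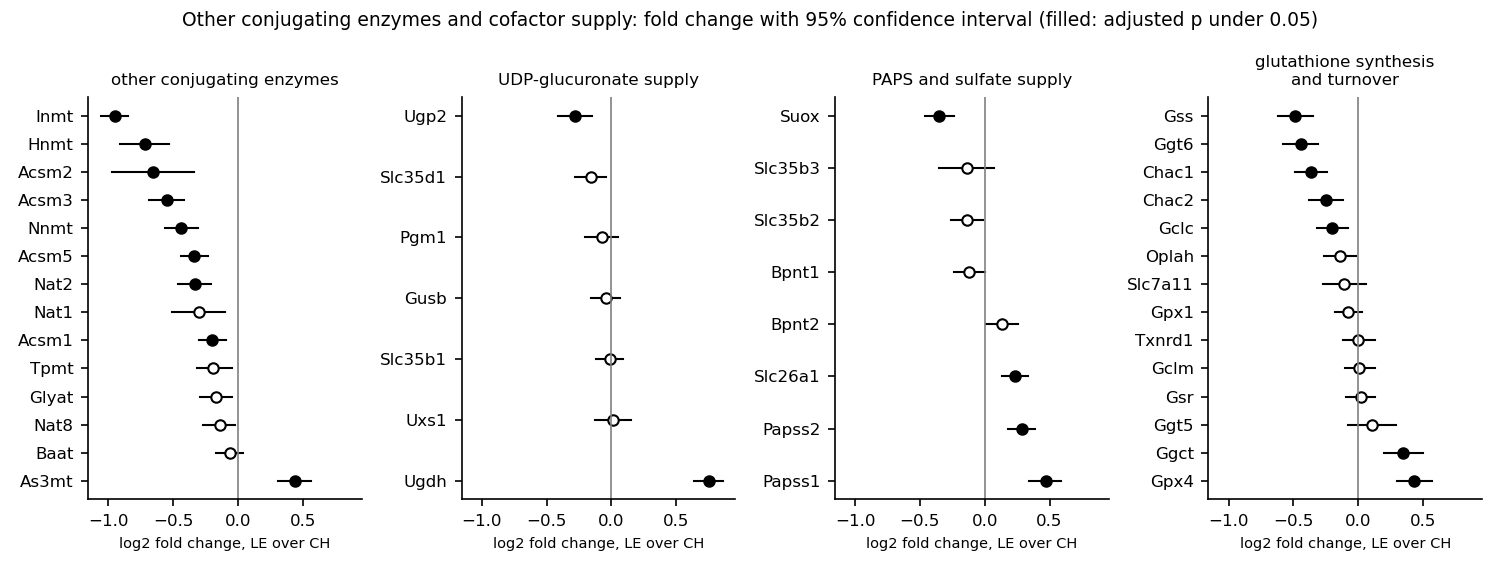
Log2 fold change, LE over CH (x axis), with 95% confidence intervals for other conjugating enzymes and for genes that supply UDP-glucuronate, PAPS and glutathione. Filled points were past the threshold. Inmt is lowest at -0.95 and Ugdh highest at 0.75.

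Of 14 receptors and factors that are known to control phase II genes, 2 rose, 1 fell and 11 were not called. Over all genes 12.1% were called, and 16.5% of those that were not dim. A gene that was not called is not shown to be unchanged. The aryl hydrocarbon receptor Ahr rose by 0.51 (SE 0.059, adjusted p = 0.00109), Foxa2 by 0.24 (0.0471, a call lost without LE2, LE3, CH1, CH2 or CH3, up to 0.132), and Cebpa fell by 0.23 (0.0149, lost without CH1 at 0.0721 or CH3 at 0.0547). The drug-sensing receptors Nr1i2 (PXR) and Nr1i3 (CAR) changed by -0.07 (adjusted p = 0.515) and -0.18 (0.0627), Nfe2l2, which encodes NRF2, by 0.03 (0.798), and Ppara by -0.18 (0.0566). Nr1i3 and Ppara were past the threshold as lower after quantile normalisation (0.0127 and 0.0157) and after centring (0.0396 and 0.0299). Known targets were divided. Of 10 CAR and PXR targets 5 rose and 2 fell, with Slco1a4 highest, Cyp2c55 at 1.22 and Ces2a at -0.49. Of 12 NRF2 targets 5 rose and 3 fell, with Me1 at 1.32, Pgd at 1.30 and Srxn1 at 1.02, and Aox1 at -0.72. Of 6 AHR targets 3 rose and 0 fell. Cyp1a1, which was dim, rose by 0.46 (SE 0.056, adjusted p = 0.00158). Cyp1a2 (0.01, adjusted p = 0.923), Cyp1b1 (-0.10) and Ahrr (0.04) were not called. Nqo1, which rose by 0.41, is counted among both the AHR and the NRF2 targets.

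Most male-biased and some female-biased genes of mouse liver were called beside the conjugation enzymes, where 7.01% of all genes were called higher and 5.08% lower. Of 9 measured male-biased genes 7 fell and 0 rose (median log2 -0.63), with a summed intensity of 40265 to 41623 in LE livers and 54507 to 55920 in CH livers. Of 10 female-biased genes 3 rose and 0 fell (median 0.07), with sums of 2516 to 2647 in LE livers and 1294 to 1339 in CH livers. The genes that rose were Cyp17a1 (log2 1.87), Abcd2 (1.95) and Cyp2b9 (1.13), and the other 7 were not called, with changes between -0.05 and 0.10. All mice were male, and the part of this shift in the UGT2B, pi-class and SULT values was not tested. Markers of pericentral hepatocytes (3 of 10 higher, 1 lower) and periportal hepatocytes (1 of 5 higher, 1 lower) had medians of 0.04 and -0.00, and the cholangiocyte markers (5 measured, 0 called) summed to 870 to 912 in LE livers and 899 to 924 in CH livers.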

How the data were processed

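The deposited table holds probe set intensity values on a linear scale for 35556 probe sets on 6 arrays. Of the background correction, normalisation and summarisation by which they were made, the text is not given in the sources used here. Per the labels' protocols, Trizol served for RNA extraction, while Partek Genomics Suite and cyberT are named in the series design. Probe sets were named from the platform annotation: 21789 carried 1 gene symbol, 1621 several and 12146 none, and 21698 of the first matched RefSeq by gene identifier. Tests used log2(intensity + 1), limma 3.58.1 (lmFit, eBayes) in R 4.3.3, both directions tested, and p-values were adjusted by Benjamini-Hochberg over 19938 genes. With 3 arrays per diet, exact permutation reaches no p under 0.1. The number of arrays limits the precision, and fold changes understate the change of dim genes. The dimmest 33.3% of genes lay at or below an intensity of about 115.

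Probe sets listed for several genes were fitted in a separate fit of all 35556, chosen after seeing the data, and 17 genes of the families have only such probe sets. Members and gene lists were chosen with earlier results of these data known. Named with all arrays were, per family, up to 8 called members of largest change and the 3 of highest mean; other genes were named for completeness, as examples chosen after their values were seen or, in each of the 9 pathway lists, as up to 3 called genes of largest change and the regulators. Of 199 memberships in 22 lists, 180 were measured. Alternatives were the replicate block, quantile normalisation, centring, a fit without the dim genes, averaging over probe sets, an intensity trend with robust prior, a test in the manner of cyberT, pseudocounts of 16 and none, and leaving out each array. The fits were tested on simulated data. Promoters were aligned with Biopython 1.88, and tables and plots used Python 3.11.15, pandas 2.3.3 and matplotlib 3.10.9.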

Additional observations from a re-analysis of the deposited data

How the results depend on the processing

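Of the 25 calls among the members, 17 held under all 15 planned settings, 7 of 7 for UGT, 5 of 7 for SULT and 5 of 11 for GST. The GST count of 11 became 6 with the replicate block and 7 in the fit of every probe set, which was chosen after seeing the data, and 5 to 9 when an array was left out. Leaving out an array gave 18 to 22 called members, 7 UGT and 5 to 7 SULT genes, and 1489 to 1868 called genes in place of 2410. The test in the manner of cyberT called 3746 genes. Same-numbered arrays had deviations from their group means that correlated at -0.021, -0.097 and 0.16, so the numbers were not taken as pairs, and the block left 20 members called, without Gstk1, Gstm3, Gsto1, Gstt1 and Gstz1 (adjusted p 0.0684, 0.0904, 0.0587, 0.0769 and 0.0792). Changes of sign were seen only for values near 0 that were called in no setting. Ugt2b34 was -0.0067 after quantile normalisation, -0.018 after centring, and Mgst2 was -0.00073 after centring. Nfe2l2 and Nr1h3 were -0.011 and -0.012 after quantile normalisation. With an array left out, the range was -0.0044 to 0.024 for Ugt2b34, -0.040 to 0.078 for Mgst2, -0.0087 to 0.12 for Gsto2, -0.090 to 0.028 for Gstt4, -0.131 to 0.049 for Sult1c1, -0.127 to 0.036 for Sult2b1 and -0.092 to 0.127 for Sult3a2. The cause of these shifts was not tested. Signal near the background limits the 8 dim SULT and 3 dim GST genes.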
